A study of Mus musculus with 4 samples.

Results

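The cardiac myosin chains and their binding protein were examined as 8 genes listed by name and located in the GENCODE annotation of the mouse genome mm10. They were the heavy chains Myh6, Myh7 and Myh7b, the light chains Myl2, Myl7, Myl3 and Myl4, and the myosin-binding protein Mybpc3, out of 21755 protein-coding genes. The data were ATAC-Seq libraries of nuclei from whole hearts of male mice on a C57BL/6 background, 8 to 12 weeks old, which carried NuTRAP and Cdh5-Cre. In these animals Cre is driven by the promoter of Cdh5, the vascular endothelial cadherin gene, and nuclei of cells with Cre activity, or descended from such cells, carry GFP. Sorting of single nuclei with a diploid DNA content gave 2 libraries of GFP+ (endothelial) and 2 of GFP- (non-endothelial) nuclei, the latter a mixture of all heart cells without the tag. ATAC-Seq uses the transposase Tn5 to cut DNA where chromatin is open, and a peak is a stretch with more cuts than the background.

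Each pair of libraries was deposited as 1 peak list, 78912 peaks for GFP- and 65008 for GFP+. A peak's area is the significance signal summed along its length, with a minimum of 200 in both lists. Areas are given here as a percentile rank within the peak's own list, in which 100 marks the largest peak, or as a position, in which 1 is the largest. No list separates its replicates, so there is no replicate error and no test between the populations, and every difference below is a description. Of 12 endothelial marker genes, 6 had a peak at an annotated start in the GFP- list and 12 in the GFP+ list. The counts were 8 and 3 of 10 for fibroblast markers, 8 and 4 of 8 for pericyte and smooth muscle markers, and 2 and 2 of 8 for macrophage markers. For 10 cardiomyocyte markers outside the myosins they were 9 and 9, with a median best start rank of 92.5 in both lists. Gene by gene, 6 of these ranked lower in GFP+ and 3 higher, with a median difference of -2.50 against -0.814 over all protein-coding genes, and their median coverage was 45.9% and 38.8%. A lower area in such a list cannot separate fewer nuclei with open chromatin from less cutting in each nucleus, and the part that cell composition had in the values below was not tested.

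Myosin II is the motor of the thick filament. A pair of heavy chains, each with an ATP-splitting head, carries 1 essential and 1 regulatory light chain per head, and myosin-binding protein C lies across the filament and modulates how heads meet actin. In the adult mouse ventricle the main heavy chain is alpha (Myh6), while beta (Myh7) is the fetal and slower form. The main ventricular light chains are Myl2 and Myl3, and the atrial ones are Myl7 and Myl4.

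Each of these heavy chain genes hosts a microRNA, and the 3 are known as a family of myosin-encoded microRNAs, so their sequences are given first, with the seed (bases 2 to 8) in capitals. They were taken from RefSeq for the GRCm38 assembly, of which mm10 is a name.
mmu-miR-208a-3p (Mir208a, chr14:54949072-54949093, minus strand, inside Myh6): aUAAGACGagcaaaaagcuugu
mmu-miR-208b-3p (Mir208b, chr14:54975710-54975731, minus strand, inside Myh7): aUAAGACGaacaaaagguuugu
mmu-miR-499-5p (Mir499, chr2:155622893-155622913, plus strand, inside Myh7b): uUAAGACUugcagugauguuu
The mir-208 pair shared the seed UAAGACG, and the seed of miR-499-5p was UAAGACU. The whole Mir208a hairpin, 83 of 83 bases, lay under a peak in both lists. No base of the Mir208b or Mir499 hairpins did, and their nearest peaks were 836 and 1644 bp away in the GFP- list and 834 and 1587 bp away in the GFP+ list. Of the 3 host genes, then, only Myh6 had its microRNA under a peak.

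A peak within 250 bp of an annotated transcript start was found for 7 of the 8 genes in each list, all but Myl7. The same was true of 61.8% of protein-coding genes in the GFP- list and 59.8% in the GFP+ list. The windows from 20 kb upstream of each gene to its end held 61 distinct peaks in the GFP- list and 60 in the GFP+ list. By overlap of at least 1 bp, 53 of the 61 GFP- peaks met a GFP+ peak (86.9%, 95% Wilson interval 76.2 to 93.2, counting error only), against 69.7% of the whole GFP- list. In the other direction 56 of 60 GFP+ peaks met a GFP- peak (93.3%, 84.1 to 97.4), against 86.6% of the whole GFP+ list. The members' peaks were also larger than the lists', with median ranks of 65.5 and 59.9, and larger peaks overlapped more often throughout. Among peaks of rank 50 or more, 38 of 39 GFP- and 37 of 37 GFP+ peaks of the members were shared, where the lists gave 86.4% and 97.0%.

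**Figure D1:**
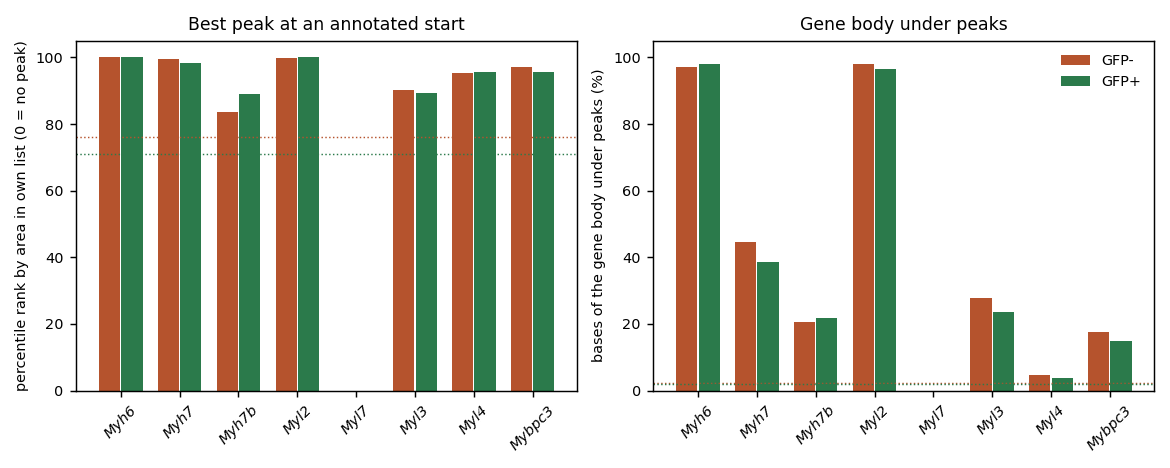
Left, percentile rank by area of the best peak within 250 bp of an annotated start of each gene, and right, percent of each gene body under peaks, for the GFP- list (brown) and the GFP+ list (green), 1 list per population and no error bars; dotted lines are medians over 21755 protein-coding genes. Myh6 and Myl2 lie above 96% in body coverage in both lists, and Myl7 has no bar in either panel.

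Myh6 encodes the alpha heavy chain (ENSMUSG00000040752.16, chr14:54941921-54966927, minus strand). Peaks covered 97.0% of its body in the GFP- list and 98.1% in the GFP+ list. Among 17694 protein-coding genes of at least 5000 bp this share was position 5 from the top in GFP- and position 2 in GFP+. Only 19 such genes passed 80% in the GFP- list (0.107%) and 14 in the GFP+ list (0.0791%), and Myl2 was the other member among them. The median over all protein-coding genes was 2.41% and 1.94%.

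A peak of 16294 bp spanned the start of Myh6 in the GFP- list (chr14:54953185-54969478, area 50849) and 1 of 15936 bp did so in the GFP+ list (chr14:54953270-54969205, area 44157). Both were position 2 by area in their own lists, and the GFP+ peak was the longest of its list. Their summits, the points of highest signal, lay 1666 and 1575 bp upstream of the 5′ end of the gene record. They were 85 and 176 bp upstream of the start of Mhrt, a cardiac long noncoding RNA transcribed from the other strand toward Myh7. By the 250-bp window used here, the summit of the largest shared peak was thus at the start of Mhrt and not at those of Myh6. The 200 bases around the GFP+ summit (chr14:54968402-54968601, mm10) are shown on the Myh6 strand as the centre of that peak, with motif matches in capitals. TEAD, the partner of YAP in muscle genes, was searched as CATTCC. The cardiac factor GATA4 and its relatives were searched as GATAAG. For NKX2-5, a cardiac homeodomain factor, the letters were CAAGTG, and every motif was searched on both strands.
Myh6 largest peak summit, GFP+: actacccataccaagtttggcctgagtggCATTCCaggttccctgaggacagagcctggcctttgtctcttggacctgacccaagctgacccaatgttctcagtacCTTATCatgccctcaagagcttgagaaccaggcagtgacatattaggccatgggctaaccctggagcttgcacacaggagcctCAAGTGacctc
Counted from the first base shown, the capitals mark a TEAD match at 30 to 35, a GATA match at 107 to 112 and an NKX2-5 match at 190 to 195.

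The rest of Myh6 was covered by 3 further peaks in each list. One of 7025 bp in GFP- (position 15) and 7388 bp in GFP+ (position 10) ran past the 3′ end of the gene, with summits 11 bp apart. One of 6551 bp in GFP- (position 137) and 5932 bp in GFP+ (position 147) lay in the body over Mir208a. Between it and the start peak was the weakest, at rank 70.3 in GFP- and 76.9 in GFP+, which was 1.25 times as large in area in GFP+ as in GFP-. It was the highest GFP+ to GFP- area ratio of any shared region of the 8 genes. In the region of the start peak the ratio was 0.868 and in the 3′ region 0.866, against a median of 0.857 over all shared regions of the genome.

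Myh6 and Myh7 are tandem paralogs, and 2003 of 24973 words of 35 bases in Myh6 (8.02%) also occurred in Myh7, the read length being 35 bases. The authors kept only reads above a mapping-quality limit, so coverage in those stretches is uncertain. The genes with coverage most like that of Myh6 in both lists, by the summed absolute difference of the 2 percentages, were Nr1d1, Myl2, Crip2, Dbp and Actc1. Nr1d1 (97.1% and 96.5%) and Dbp (96.9% and 93.6%) are circadian regulators. Crip2 (98.6% and 100.0%) encodes a LIM-domain protein and Actc1 (100.0% and 96.5%) cardiac actin.

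**Figure D2:**
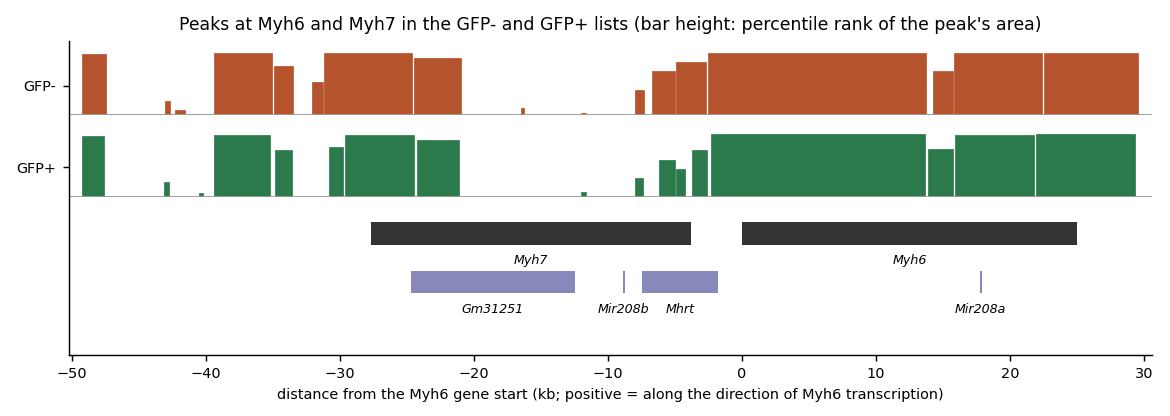
Peaks of the GFP- list (brown) and the GFP+ list (green) around Myh6 and Myh7, with gene bodies (black) and noncoding genes (violet) below; the x axis is distance in kb from the Myh6 gene start, and bar height is percentile rank by area, full height being 100. Myh6 is almost wholly under peaks in both lists, and the middle of Myh7, with Mir208b, is almost bare.

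Myh7, the beta heavy chain (ENSMUSG00000053093.16, chr14:54970684-54994626, minus strand), was covered over 44.6% of its body in GFP- and 38.4% in GFP+. The main start was under 6546 bp of peak in GFP- (chr14:54991540-54998085, rank 99.4, position 439). In GFP+ the same stretch held a start peak of 5188 bp (chr14:54991371-54996558, rank 98.4, position 1015) and a separate upstream peak of 1087 bp at rank 79.3. The summit of the joined GFP- peak and that of the separate GFP+ peak were 2 bp apart, 2450 and 2448 bp upstream of the gene. In the GFP+ start peak the summit was 40 bp inside the gene. By the summit's -log10 p the upstream point was also the higher of the GFP+ pair, at 6.53 against 6.36 at the start, so the lists shared the highest point of this stretch and differed in where the caller divided it. The 250 bases before the start (chr14:54994627-54994876) are given because both peaks cover them, with 1 TEAD match at 50 to 55.
Myh7 promoter before 54994626: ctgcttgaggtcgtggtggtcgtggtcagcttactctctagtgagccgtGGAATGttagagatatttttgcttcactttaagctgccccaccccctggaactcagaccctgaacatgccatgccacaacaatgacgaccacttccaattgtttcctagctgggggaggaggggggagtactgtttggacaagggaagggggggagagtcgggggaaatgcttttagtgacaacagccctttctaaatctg

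Further upstream was a peak larger by area than the start peak in both lists. It ran over 4365 bp in GFP- (chr14:55001974-55006338, rank 99.7, position 221) and 4251 bp in GFP+ (chr14:55002094-55006344, rank 99.8, position 159). The peak outlines overlapped over 4245 bp, but the summits stood 594 bp apart, 9484 bp upstream of Myh7 in GFP- and 10078 bp upstream in GFP+. Both summit windows are shown because the lists place the summit of this shared peak at different points, and each window held a MEF2 and a TEAD match, in capitals.
Myh7 largest upstream peak summit, GFP- (chr14:55004010-55004209, minus strand): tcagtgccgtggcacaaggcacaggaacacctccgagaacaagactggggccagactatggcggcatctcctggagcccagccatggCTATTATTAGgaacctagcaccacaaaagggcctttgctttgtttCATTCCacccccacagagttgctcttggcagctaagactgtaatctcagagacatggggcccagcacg
Myh7 largest upstream peak summit, GFP+ (chr14:55004604-55004803, minus strand): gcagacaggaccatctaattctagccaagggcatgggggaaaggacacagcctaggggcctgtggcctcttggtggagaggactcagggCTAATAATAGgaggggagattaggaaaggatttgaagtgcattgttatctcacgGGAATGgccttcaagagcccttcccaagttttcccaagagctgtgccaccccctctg
The matches lay at 88 to 97 and 133 to 138 in the first window and at 90 to 99 and 144 to 149 in the second.

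Myh7 had more peaks found in a single list than any other member, but its window also held the most GFP- peaks. Unshared were 4 of its 14 GFP- peaks and 1 of its 12 GFP+ peaks. In the whole lists 23923 of 78912 and 8730 of 65008 were unshared, so neither share was above that of its list. In GFP- there were 4, at chr14:54983141-54983371 (rank 10.4), chr14:54998210-54999002 (rank 52.1), chr14:55007589-55007855 (rank 0.0798) and chr14:55008493-55009190 (rank 7.41). In GFP+ there was 1, at chr14:55007123-55007406 (rank 3.73). The peak of rank 52.1, 793 bp long with its summit 3995 bp upstream of Myh7, was the largest unshared peak of the 8 genes. Its 200 summit bases (chr14:54998521-54998720, minus strand) held none of the motifs searched. The commonest of these motifs, TEAD, was in 13.6% of summit windows of the whole GFP- list. The share of windows without any of the motifs was not computed, so no contrast to the shared summits is drawn from this 1 window.
Largest unshared peak (Myh7, GFP-): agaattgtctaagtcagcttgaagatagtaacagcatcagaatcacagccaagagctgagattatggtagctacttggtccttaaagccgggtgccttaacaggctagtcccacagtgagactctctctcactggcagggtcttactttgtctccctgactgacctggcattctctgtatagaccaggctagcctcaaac
A retained-intron transcript of Myh7 starting at chr14:54973528 had a peak of rank 70.4 within 250 bp in GFP- and none in GFP+, where the matching peak ended at 54973128 at rank 58.4. Both lie in the end of Myh7 that Mhrt also spans, and peaks covered 85.2% of Mhrt in GFP- and 62.5% in GFP+. The strand of a transcript cannot be read from open chromatin, so these peaks are not assigned to either gene. The peak farthest upstream, at ranks 98.03 and 97.5, had its summits 64 and 62 bp from the start of Ngdn, a neighbouring gene.

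Myh7b (ENSMUSG00000074652.3, chr2:155611212-155634307, plus strand) encodes a further heavy chain found in slow muscle and heart. Peaks covered 20.5% of it in GFP- and 21.8% in GFP+, the only member besides Myh6 with the higher share in GFP+. Its start peak was 757 bp at rank 83.6 in GFP- (chr2:155610952-155611708) and 1397 bp at rank 88.9 in GFP+ (chr2:155610937-155612333). The GFP+ peak spanned a gap that split the GFP- signal into this peak and another at chr2:155611823-155612433 of rank 65.5. Summed over the merged region, the area in GFP+ was 0.920 times that in GFP-, so the higher rank of the start peak came with a lower summed area.

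Along the body of Myh7b the shared peaks ranked lower in GFP+. The ranks were 62.0 and 51.0 at chr2:155613138-155613796, and 52.9 and 34.2 at chr2:155624545-155625272. The largest drop was at an internal start, chr2:155629060, where the best peak ranked 58.9 in GFP- and 26.4 in GFP+. Peaks found only in GFP+, at ranks 9.38 and 1.76, lay near the 3′ end. The peak farthest upstream, at ranks 89.8 and 88.1, covered the start of Gss, the glutathione synthetase gene.

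Myl2, the ventricular regulatory light chain (ENSMUSG00000013936.12, chr5:122100951-122113472, plus strand), was covered over 97.98% of its body in GFP- and 96.4% in GFP+. These shares were positions 3 and 5 from the top among genes of at least 5000 bp. A stretch of 13399 bp over the gene carried 2 peaks in each list, split at different points. In GFP- they were chr5:122099942-122106648 (6707 bp, position 233) and chr5:122106753-122113323 (6571 bp, position 43). In GFP+ they were chr5:122099925-122103759 (3835 bp, position 821) and chr5:122103995-122113253 (9259 bp, position 15). The summed area in GFP+ was 0.848 times that in GFP-. The first peak had its summit 99 bp upstream of the start in GFP- and 104 bp in GFP+. The second peak was the larger in both lists and had its summit at the same base in both, 8502 bp inside the gene in an intron, where the 3′ part of Ccdc63 on the other strand overlaps Myl2. A start of Ccdc63 lay 1660 bp from that summit, under the same peak. By the summit's -log10 p the order was the other way, 11.8 at the Myl2 start against 11.5 in GFP- and 11.9 against 10.4 in GFP+.

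The Myl2 start summit in GFP+ (chr5:122100747-122100946, 200 bases ending just before the first start) held 1 MEF2 match, at 179 to 188.
Myl2 start peak summit, GFP+: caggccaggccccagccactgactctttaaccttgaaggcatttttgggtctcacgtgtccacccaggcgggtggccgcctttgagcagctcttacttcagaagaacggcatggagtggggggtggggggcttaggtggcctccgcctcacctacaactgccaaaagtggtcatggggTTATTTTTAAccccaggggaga
Of the 12 annotated starts of Myl2, 11 lay within the first peak in both lists, at ranks 99.7 and 98.7. The last, at chr5:122103913, fell near the second peak in GFP+, which sets the gene's best start rank there at 99.98. Outside the gene, a peak of 2827 bp in GFP- (chr5:122092389-122095215, rank 99.4) and 2877 bp in GFP+ (chr5:122092398-122095274, rank 99.2) covered 2 further Myl2 starts that RefSeq places at 122092724 and 122093189. Neither start is in the GENCODE release used, where the nearest Myl2 start was 8227 and 7762 bp away. Read with GENCODE alone that peak is intergenic, and read with RefSeq it is a promoter peak of Myl2.

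Myl7, the atrial regulatory light chain (ENSMUSG00000020469.8, chr11:5896637-5898782, minus strand), was the member without a peak at its start or in its body in either list. The nearest summit of any peak in its window was 14065 bp upstream. A stretch that no list reports had an area under 200, or was not called, so a lower level of opening was not detectable here. The labels do not separate atria from ventricles. The 250 bases before the start (chr11:5898783-5899032) are shown because they held 4 motif matches although no peak was called there: NKX2-5 at 83 to 88, TEAD at 181 to 186, a CArG box at 190 to 199 and GATA at 210 to 215.
Myl7 promoter before 5898782: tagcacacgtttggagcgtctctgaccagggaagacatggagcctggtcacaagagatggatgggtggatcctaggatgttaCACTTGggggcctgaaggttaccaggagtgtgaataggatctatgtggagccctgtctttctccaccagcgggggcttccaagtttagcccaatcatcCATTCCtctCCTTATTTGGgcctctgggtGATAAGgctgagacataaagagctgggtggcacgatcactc

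**Figure D3:**
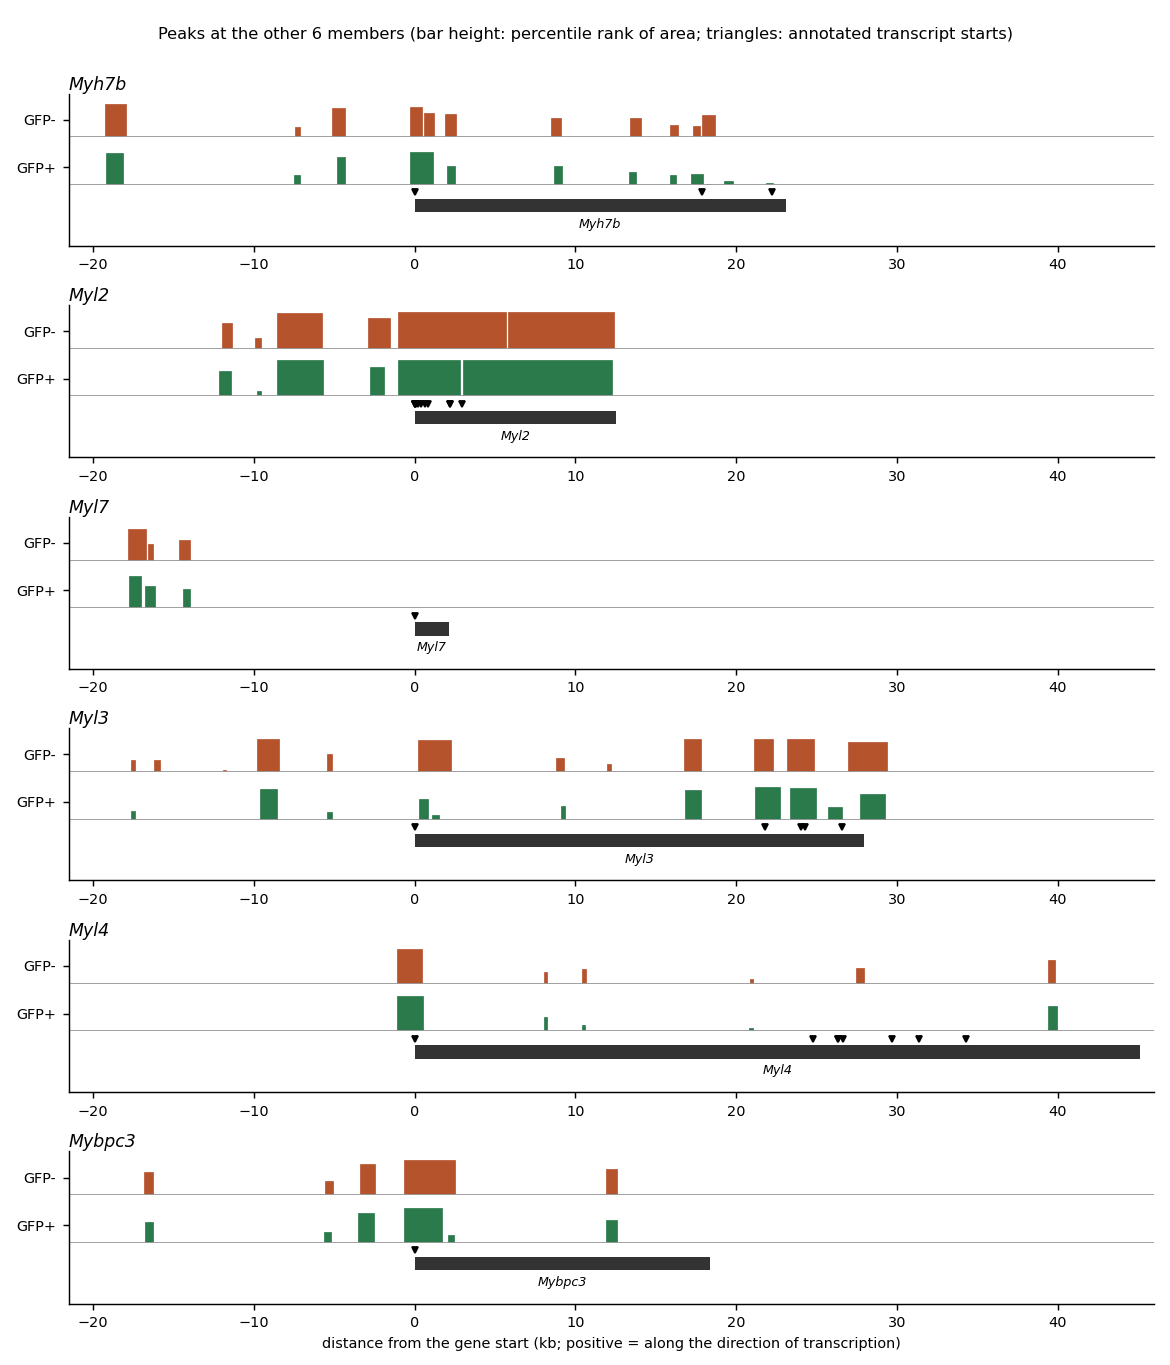
Peaks of the GFP- list (brown) and the GFP+ list (green) at the remaining 6 genes, drawn against distance in kb from each gene's start, with the gene body in black, annotated transcript starts as triangles and bar height as percentile rank by area (full height 100). Myl2 is under peaks from end to end, Myl7 has none near its start or in its body, and the internal starts of Myl4 have none.

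Myl3, the ventricular essential light chain (ENSMUSG00000059741.13, chr9:110741861-110769798, plus strand), was covered over 27.8% in GFP- and 23.7% in GFP+. Its gene record begins with a start that lies inside Pth1r, the parathyroid hormone receptor gene on the other strand, and the RefSeq start lies 32 bp from the annotated start at chr9:110763646. At 110763646 the peak ranked 89.7 in GFP- (chr9:110762946-110764133) and 89.4 in GFP+ (chr9:110763021-110764610). At the starts 110765861 and 110766156 the next peak ranked 90.2 and 86.8. Both downstream promoters were thus open in each list at near ranks. The 250 bases before 110763646 (chr9:110763396-110763645) held 2 TEAD matches, at 106 to 111 and 134 to 139, and a CArG box at 198 to 207, the motif of serum response factor.
Myl3 promoter before 110763646: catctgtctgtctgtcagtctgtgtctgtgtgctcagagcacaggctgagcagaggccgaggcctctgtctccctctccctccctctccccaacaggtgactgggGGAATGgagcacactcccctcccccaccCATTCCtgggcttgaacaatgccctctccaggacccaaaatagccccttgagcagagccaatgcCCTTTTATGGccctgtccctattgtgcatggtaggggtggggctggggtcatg

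The first start of the Myl3 record was the one that differed most. It had a GFP- peak of 2078 bp (chr9:110742075-110744152, rank 86.5), and in GFP+ the same stretch held peaks of 579 and 425 bp at ranks 55.9 and 10.2, the nearer of which began just past the 250-bp window. The summed area ratio there was 0.333, the lowest of any shared region of the 8 genes. Starts of Pth1r lie in the same stretch, so the peak cannot be given to Myl3 alone. Over the whole Myl3 window, 12 of 13 merged regions ranked lower in GFP+, with a median area ratio of 0.676 over the 9 that were shared, the lowest median of the 8 windows. The regions upstream of the gene all had their summits in introns of Pth1r, so these values are not those of Myl3 alone. The 3 GFP- peaks at ranks 29.9, 2.53 and 20.8 had no GFP+ partner, and 1 GFP+ peak near the 3′ end, chr9:110767550-110768423, had no GFP- partner (rank 32.8).

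Myl4, the atrial and fetal essential light chain (ENSMUSG00000061086.12, chr11:104550663-104595753, plus strand), had the lowest coverage of the members with any, 4.71% in GFP- and 3.82% in GFP+. The peak at its first start had rank 95.2 in GFP- (chr11:104549557-104551125) and 95.5 in GFP+ (chr11:104549558-104551160). The summits, however, were 11 and 50 bp from the start of Cdc27, a cell-cycle gene read from the other strand, and 169 and 130 bp from that of Myl4. None of the other 7 Myl4 starts had a peak in either list, and 2 of them (104576985 and 104577281) are RefSeq starts. The start rank of Myl4 therefore rests on a promoter shared with Cdc27. A GFP- peak at chr11:104578110-104578608, rank 42.0, lay 981 bp from the nearest Myl4 start and was not in GFP+. In the far end of the gene an intronic peak ranked 64.6 and 68.7, with summits 4 bp apart.

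Mybpc3, cardiac myosin-binding protein C (ENSMUSG00000002100.15, chr2:91118144-91136516, plus strand), was covered over 17.5% in GFP- and 15.01% in GFP+. The start peak was 3182 bp in GFP- (chr2:91117471-91120652, rank 97.3, position 2160) and 2366 bp in GFP+ (chr2:91117512-91119877, rank 95.6, position 2832). Its summits lay 626 and 636 bp inside the gene, in an intron, 10 bp apart. A GFP+ peak of 371 bp (rank 19.8) covered the far end of the GFP- peak. All 5 merged regions of the Mybpc3 window were shared and all ranked lower in GFP+, with area ratios from 0.679 to 0.812. Those upstream of the gene all had their summits inside Spi1. Upstream, the peak at ranks 83.4 and 80.6 had its summits 1 bp apart and lay in the last part of Spi1, a myeloid transcription factor gene whose own starts had no peak in either list. The promoter (chr2:91117894-91118143) held an NKX2-5 match at 111 to 116, a MEF2 match at 161 to 170 and a GATA match at 191 to 196.
Mybpc3 promoter before 91118144: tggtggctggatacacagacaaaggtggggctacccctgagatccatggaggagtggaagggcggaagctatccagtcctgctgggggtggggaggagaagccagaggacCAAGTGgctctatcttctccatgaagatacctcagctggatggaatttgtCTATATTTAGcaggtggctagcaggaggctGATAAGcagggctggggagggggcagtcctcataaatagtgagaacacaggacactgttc

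Taken by merged regions, in which overlapping peaks of both lists are joined, the 8 genes had 59 regions. Both lists held 47 of these, while 8 were called in GFP- alone and 4 in GFP+ alone. The rank was lower in GFP+ for 43 and higher for 16, where 67.9% of 86649 regions in the genome were lower in GFP+. Subtracting the GFP- rank from the GFP+ rank gave a median of -2.85 for the members and -3.90 for all regions. The median area ratio over shared regions was 0.818 against 0.857. Among regions of rank 80 or more in a list, all 21 of the members were in both lists and 15 ranked lower in GFP+, with a background of 75.6%. Neither count of lower ranks stood far from its background. The split differed by window, from 12 of 13 lower in that of Myl3 and 5 of 5 in that of Mybpc3 to 3 of 6 in that of Myl4. These windows also hold parts of Pth1r, Spi1 and Cdc27, so the split is not of the members alone.

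**Figure D4:**
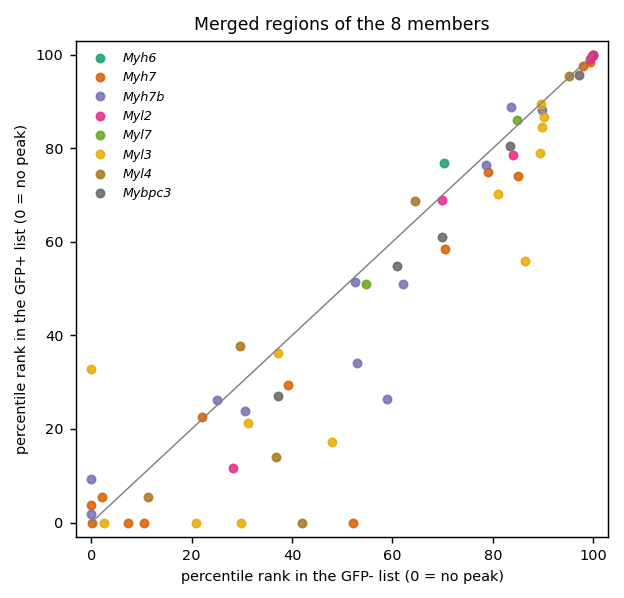
Percentile rank by area of each of the 59 merged regions in the GFP- list (x axis) and the GFP+ list (y axis), coloured by gene, with regions shared by the Myh6 and Myh7 windows drawn as Myh7; 0 means no peak in that list and the line marks equal rank. The 21 regions of rank 80 or more are all in both lists, and 43 of the 59 lie below the line.

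By the best peak at any start, 4 genes ranked lower in GFP+ (Myh6, Myh7, Myl3 and Mybpc3) and 3 ranked higher (Myh7b, Myl2 and Myl4), where 71.4% of 13643 genes with a start peak ranked lower. For Myh6 the difference reflects list length alone, since its peak was position 2 in both. For Myl2 it reflects the start at 122103913, and at the other 11 starts the rank was 98.7 in GFP+ and 99.7 in GFP-. By coverage, 5 members were lower in GFP+ and 2 higher, where 66.3% of genes with a covered body were lower. Peaks of at least 5000 bp were 0.128% of the GFP- list and 0.106% of the GFP+ list. The members held 6 of the 101 in GFP- and 5 of the 69 in GFP+, all at Myh6, Myh7 and Myl2.

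The distance between summits was like that of the lists at large. Of the 53 GFP- peaks with a GFP+ partner, 41 had its summit within 50 bp, with a median gap of 17 bp, where 75.9% of all shared GFP- peaks did, with a median of 19 bp. Of the 56 GFP+ peaks with a partner 41 did, with a median of 21.5 bp, against 74.1% and 20 bp in the whole list. The widest gap was 2490 bp, at the GFP+ peak over the Myh7 start. Others were 1540 bp at the upstream peak of Myl2, and 1172 bp at a peak in the body of Myh7. Gaps of 1566 bp at the 371-bp GFP+ peak of Mybpc3 and 1040 bp at the 611-bp GFP- peak of Myh7b were at short peaks that faced part of a longer one. So was the gap of 1417 bp, at a 630-bp GFP+ peak in the body of Myh7.

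Motif matches were counted over all member peaks and set beside the whole lists. MEF2 and the CArG box were searched by their usual patterns, which are both rich in A and T and can overlap. The ETS motif, bound by endothelial and other ETS factors, was searched as CAGGAAG. Nuclear receptors were searched as AAGGTCA. In the 200 bases around summits, MEF2 matches were in 6 of 61 member peaks in GFP- (9.84%) and 6 of 60 in GFP+, against 4.98% and 5.44% of the whole lists. Nuclear receptor matches were in 8 (13.1%) and 6, against 5.24% and 5.66%. TEAD matches were in 9 (14.8%) and 10 (16.7%), against 13.6% and 12.7%, and ETS matches in 4 (6.56%) and 6, against 11.3% and 13.0%. For GATA the counts were 5 (8.20%) and 4 (6.67%), against 6.83% and 6.96%, and for NKX2-5 they were 9 (14.8%) and 10 (16.7%), against 13.5% and 13.1%. CArG boxes were in 2 (3.28%) and 2 (3.33%), against 1.12% and 1.08%. The T-box motif of TBX5 and its relatives, searched as GGTGTG, was in 7 (11.5%) and 5 (8.33%), against 12.6% and 13.6%. Most of these peaks are the same sites seen in both lists, so the counts of the lists are not independent of each other. In the 10 promoters of 300 bases that the RefSeq table held for the 8 genes, without the Myl2 start at 122100951, TEAD matches were in 4 (Myh6, Myh7, Myl3 and Myl7) against 14.7% of 32851 promoters. CArG boxes were in 2 (Myl3 and Myl7) against 1.63%, and a MEF2 match was in 1 (Mybpc3) against 3.19%, the match before the Myl2 start shown above lying outside these 10. GATA, NKX2-5 and T-box matches were in 2 each, against 7.44%, 13.6% and 19.05%, and ETS and nuclear receptor matches in 1 each, against 13.3% and 4.72%. The counts are small, and a match is not evidence of binding.

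Other myosin genes and their partners were read at their starts in the same way. They were taken from lists set by name, and a place in a list does not mean that a gene is silent in heart muscle. Of 14 annotated genes listed as skeletal and developmental myosins and binding proteins, 3 had a start peak, in both peak lists, and 11 had none in either. The 3 were the fast light chain Mylpf (ranks 98.8 and 98.5), Mybpc2 (84.0 and 44.0) and Mybphl (75.2 and 31.0). No base of the Mybphl body was under a peak in either list, so its start peak lay outside the gene. Starts of neighbouring genes were not read for these 3. Starts of the skeletal heavy chains Myh1, Myh2, Myh3, Myh4 and Myh8 were among those without. All 9 smooth muscle and non-muscle myosins had start peaks in both lists, and 7 ranked lower in GFP+. Over all protein-coding genes, 61.8% in GFP- and 59.8% in GFP+ had a start peak. Of those with one in either list, 71.4% ranked lower in GFP+. Myl6 and Myl6b had identical ranks in each list (98.4 and 98.1), so their counts are not separate. Among the 9, Myl9, the smooth muscle regulatory light chain, went from 78.5 to 6.05 and Myh11, the smooth muscle heavy chain, from 73.7 to 60.3. Of 9 kinases, phosphatase subunits and chaperones of myosin, 8 had start peaks in both lists and Mylk2, the skeletal kinase, in neither. The cardiac kinase Mylk3 ranked 96.4 and 95.8, and the chaperones Smyd1 and Unc45b ranked 83.9 and 83.8, and 92.8 and 93.4. These 3 genes differed by less than 1 rank point between the lists, while Myl9 and Myh11 ranked lower by over 10. All 5 were named out of longer lists, whose other members do not divide in this way. Myh9 (0.354), Myh14 (0.386) and Ppp1r12a (-0.0867) also differed by less than 1, and the kinase Mylk differed by -3.73. The median difference was -0.377 for the smooth muscle and non-muscle myosins and -0.486 for the kinases, phosphatase subunits and chaperones. Over all protein-coding genes it was -0.814. The cardiomyocyte markers outside the myosins ranged from -11.3 (Actc1) to 8.44 (Ttn).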

How the data were processed

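ATAC-Seq libraries of 2 GFP- and 2 GFP+ samples were deposited as 1 narrowPeak list per population. According to the methods and the submitters' notes, the authors trimmed reads with fastp, aligned them to mm10 with Bowtie2 (2.3.5.1 in the notes), removed duplicates with Picard, downsampled, and called both replicates together with Genrich, leaving out chrM, chrY and blacklisted regions. The deposited signal is the area of each peak, and the authors' file also gives each summit a -log10 p-value. The methods state that libraries were downsampled to a common number of reads before peak calling. The lists hold no read counts, so the depth behind a single peak is unknown.

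Peaks were intersected with GENCODE M21 gene bodies, 20 kb upstream windows and 250 bp each side of every annotated start, using Python 3.11.15, pandas 2.3.3 and numpy 2.4.6. Ranks are by area within a list. Overlap needed 1 bp. Interval code was tested on simulated data. Sequences are from RefSeq GRCm38.p6. Named genes were the 8 members, neighbours with starts in their windows, other myosin genes, microRNAs inside members and the 5 genes most like Myh6 in coverage. The members and lists were chosen with earlier results of these data known. Results at 1 neighbouring gene are not reported here.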

Additional observations from a re-analysis of the deposited data

How the results depend on the processing

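No paired analysis was possible because each list pools the replicates of its population, and for the same reason no replicate could be left out. The number of genes with a start peak stayed at 7 in each list under 5 of the 6 alternatives, and was 6 in GFP+ when only the 5′ end of the gene record was used. With areas of at least 500 the GFP+ peaks numbered 39 in place of 60, and 97.4% overlapped a GFP- peak. With areas of at least 1000 there were 34 GFP- and 29 GFP+ peaks, and 100% of the latter overlapped. In gene bodies alone there were 36 and 37 peaks. With a reciprocal overlap of 50%, the GFP+ share was 81.7% and the GFP- share 80.3%. At the area limits of 500 and 1000 the GFP- share was 80.4% and 85.3%. Shares of the whole lists were not computed under these alternatives, so these shares have no background. The number of genes ranking lower in GFP+ ranged from 3 to 5. Differences in rank (GFP+ minus GFP-) changed sign for Myl2 with the start base or the gene record alone (-0.967 in both), and by -log10 p for Myh6 (0.299) and Myh7b (-4.64). By area per bp they did so for Myh7b (-13.7), Myl4 (-1.75) and Mybpc3 (2.89), and by length for Myh6 (0.00127). With peaks joined across gaps under 500 bp, an alternative chosen after seeing the data, they did so for Myh7b (-0.471) and Myl2 (-0.00437). The sign held but the size moved by area per bp for Myh6 (-4.64) and Myl2 (7.78), and by length for Myh7b (16.1). The same was true by -log10 p for Myl2 (1.31) and Mybpc3 (-2.95). For Myh7 and Myl3 the sign held under every alternative tried but the size did not. The area limits of 500 and 1000 are no check of these differences, because ranks were kept from the full lists and every difference stayed the same. Myh7 went from -1.0 to -13.6 by -log10 p and -9.19 by area per bp, and Myl3 from -0.864 to -16.7 by area per bp and -86.5 with the gene record alone. The last value, like the count of 6 genes, rests on a GFP+ peak that began just past the 250-bp window. Over that merged region, which also holds starts of Pth1r, the difference was -30.6. The causes of the sign changes were not tested, apart from Myl2, where 1 internal start near the split between its peaks sets the GFP+ value.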
